A study of Homo sapiens with 12 samples.

Results

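The comparison described here set 3 libraries of human multiple myeloma cells after 5 days in NGI-1 against 3 libraries labelled day 0, gene by gene. These are 6 of the 12 libraries of the series, and 11939 of the 59276 listed features were tested, those that reached 1 TPM in 3 or more libraries. TPM is a length-corrected measure of each transcript's share of the RNA in a library, with the same total in every library, and the deposited unit is log2(TPM + 1). The series followed cells labelled MM1S, an established myeloma cell line, by RNA sequencing at day 0 and after 2, 3 and 5 days, with 3 libraries each. NGI-1, a small molecule inhibitor of the oligosaccharyltransferase (OST) complex, was given at 10 μM. The day 0 libraries also carry NGI-1 as their treatment label, but the study calls them untreated. Whether they received the solvent DMSO is not settled by the sources used here, and the series holds no untreated libraries labelled day 5, so NGI-1 and 5 days of culture cannot be told apart. The study describes its data in general as means of biological replicates, but neither the labels nor the RNA-seq methods say whether the 3 libraries of a group came from separate cultures, so p-values measure the spread between these samples, which may be technical.

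The OST complex sits in the membrane of the endoplasmic reticulum (ER) and moves a preassembled sugar chain from the lipid dolichol to asparagines of newly made proteins. Its catalytic subunit is STT3A or STT3B. Sugar chains help secreted and surface proteins to fold, and plasma cells, which secrete antibody in bulk, depend heavily on this machinery. Misfolded protein in the ER engages the unfolded protein response, whose IRE1, ATF6 and PERK branches act through XBP1, ATF6 and ATF4.

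The labelled cell type was checked first. All 10 plasma cell markers examined, among them SDC1, TNFRSF17, IRF4, PRDM1 and JCHAIN, were at 1 TPM or more in both groups, and their summed level was 12150 to 14301 TPM at day 0 and 19971 to 21264 TPM at day 5. JCHAIN carried the difference, as without it the sum was 3418 to 3599.8 TPM at day 0 and 3052 to 3419 TPM at day 5. SDC1, CD38, IRF4, XBP1, POU2AF1 and MZB1 fell as deposited. Of these, SDC1 and XBP1 stayed lower after rescaling, at -0.57 and -0.87, and POU2AF1 did not. IRF4, MZB1 and CD38 then stood at 0.13, 0.16 and -0.16, not called. Markers of other cell types were low. Summed over 8 genes each, B cell markers reached at most 4.76 TPM, T and NK cell markers 4.75 TPM and myeloid markers 5.93 TPM in any of the 6 libraries. Markers of red cells and platelets (6 genes) stayed under 1 TPM in sum, as did those of fibroblasts (6 genes). Epithelial and endothelial markers summed to 19.5 to 24.4 TPM at day 0 and 7.72 to 12.1 TPM at day 5, from KRT18, KRT8 and PECAM1, while EPCAM, KRT19, VWF and CDH5 were listed at 0 in all 6 libraries. The cell line label itself was less well borne out. MM1S is known as a lambda light chain line with a translocation that drives MAF, whereas the kappa constant gene IGKC stood at 26953, 23747 and 25082 TPM at day 0, the lambda genes IGLC2 and IGLC3 at no more than 3.44 and 0.456 TPM, and MAF at 9.31, 8.89 and 8.46 TPM. IGLC1 was listed at 507 to 560.1 TPM, and the receptor gene FGFR3 at 265 to 301 TPM. These values go against the label, no other name is given to the cells, and they are called the libraries labelled MM1S.

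Depth could not be read from the files, since TPM values keep no counts. Between 9894 and 11528 features per library reached 1 TPM in the 6 libraries. Across features, which are not independent replicates, Pearson's r between libraries of a group was 0.996 at day 0 and 0.992 to 0.995 at day 5. Replicate 3 of day 5 stood somewhat apart, at a distance of 36.9 from the mean of the day 3 libraries and 42.0 from the mean of the other day 5 libraries. Both distances are Euclidean, in log2(TPM + 1) over the tested features.

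Most of the transcriptome was listed lower at day 5. Limma called 8333 features lower, which is 69.8% of those tested, and 923 higher, or 7.73%, where the Benjamini-Hochberg adjusted p was under 0.05 and the log2 fold change exceeded 0.5 either way. At the median, tested features changed by -0.99 in log2. Because TPM is a share, a large gain in a few abundant transcripts lowers every other value, and in bulk samples fewer cells of a type and less RNA per cell cannot be told apart. The libraries were therefore also compared after rescaling, in which each library was divided by a single factor, chosen so that its median log2 ratio against the average library was 0 over 5433 features averaging 10 TPM or more. The factors were close to 1.5 at day 0 and 0.573, 0.620 and 0.738 at day 5. Rescaling raised the log2 fold changes by 1.06 at the median, and 3209 features (26.9%) were then called lower and 3281 (27.5%) higher, while the median was -0.019. All 3209 were also called lower as deposited, and all 923 higher features stayed higher, while 299 went from lower to higher. Dividing by larger factors at day 0 than at day 5 could only raise the fold changes. The nesting of the calls therefore follows largely from the scaling, and a call on both scales is no independent support. Of features called lower on both scales, 1405 fell by more than 2 log2 units and 116 by more than 4. Of those called higher on both, 74 rose by more than 2 and 10 by more than 4. The counts in gene lists below are to be read beside the 69.8% lower and 7.73% higher of all tested features. After rescaling these shares were 26.9% and 27.5%.

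**Figure D1:**
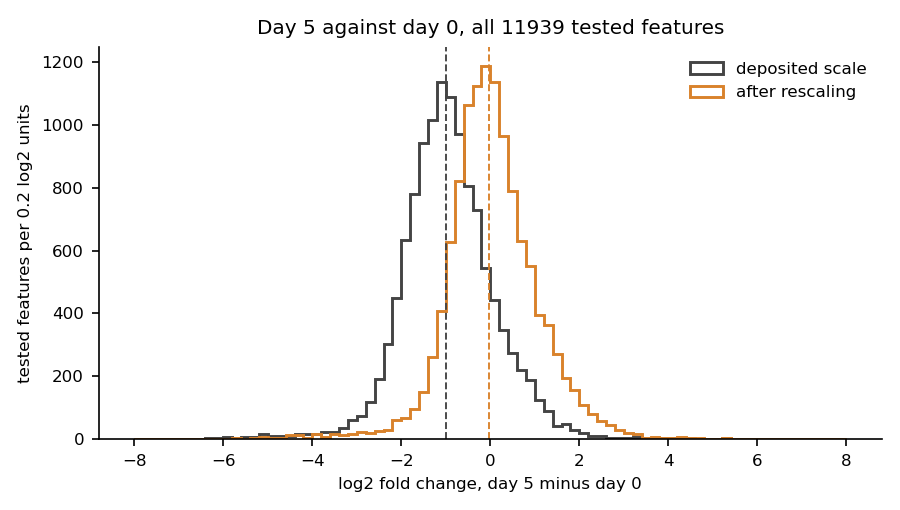
Number of tested features (y axis, per 0.2 log2 units) by log2 fold change of day 5 against day 0 (x axis), on the deposited scale (grey) and after rescaling (orange), with dashed lines at the medians. The deposited values centre on -0.99 and the rescaled values on -0.019, and both distributions have a long lower tail below -4.

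The deepest falls were in genes that build and divide chromosomes. RRM2, the small subunit of ribonucleotide reductase and thus a supplier of deoxynucleotides, stood at 486, 450.4 and 463 TPM at day 0 and at 1.65, 1.28 and 1.01 TPM at day 5. Its groups lay 356-fold apart, with a log2 fold change of -7.67 (standard error 0.152, adjusted p = 1.46e-13 from limma) and -6.68 after rescaling. NUSAP1, a spindle protein, went from 167, 158 and 160.2 TPM to 0.444, 0.591 and 0.312 TPM. UBE2C, the ubiquitin-conjugating enzyme of the anaphase-promoting complex, went from 349.9, 311 and 318 TPM to 2.12, 2.67 and 1.79 TPM. That no day 5 library reached the day 0 range in these 3 genes was a condition for choosing them. The other falls among the 15 largest were in AC087632.2, TYMS, MYBL2, CCNB1, TPX2, CDC20, TROAP, TK1, ARHGAP11A, BUB1B, CDCA5 and SKA1, with log2 fold changes from -6.38 to -5.81 and, after rescaling, from -5.62 to -4.99. CCNB1, the cyclin that drives entry into mitosis, stood at 206, 206 and 189 TPM at day 0 and 1.68, 2.18 and 1.5 TPM at day 5. AC087632.2, a feature with no single match in the annotation used, was at 112, 117 and 131 TPM and then at 0, 1.09 and 0.435 TPM.

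**Figure D2:**
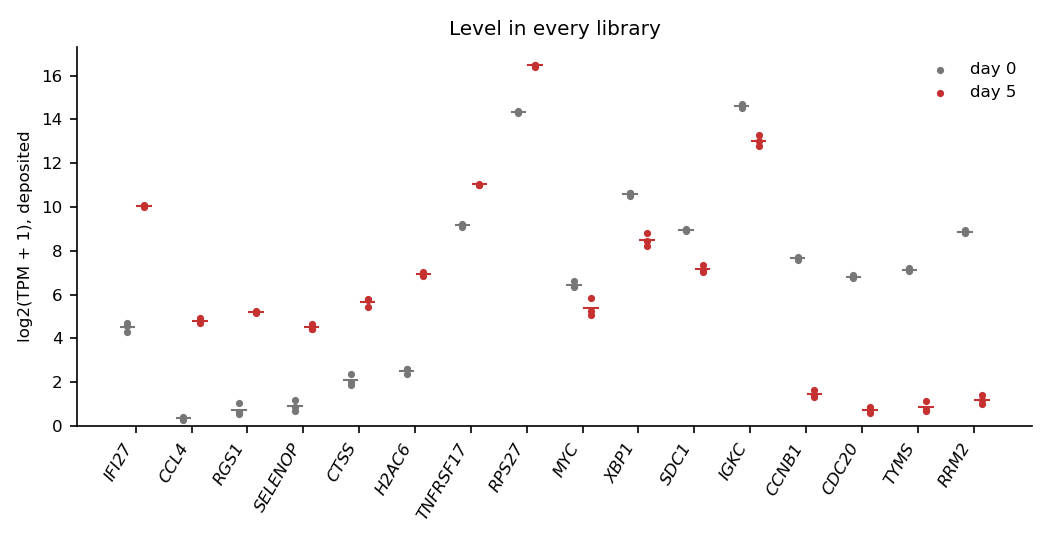
Deposited log2(TPM + 1) (y axis) of 16 named genes (x axis) in each of the 3 day 0 libraries (grey points) and 3 day 5 libraries (red points), with lines at the group means. In each of these genes the groups do not overlap, from IFI27, about 22.0 TPM against 1059 TPM, to RRM2, about 467 TPM against 1.31 TPM. For genes taken from the largest rises and falls this was a condition of choice.

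All 64 mitosis and cytokinesis genes were tested, and all 64 were called lower on both scales, with medians of -4.92, and -3.94 after rescaling, beside -0.99 and -0.019 for all tested features. The smallest fall was in the kinesin KIF22, at 61.4, 58.8 and 62.2 TPM and then 14.3, 13.8 and 14.3 TPM, or -2.03 in log2. The 64 genes together took 0.424% ± 0.0035 of the TPM at day 0 and 0.0136% ± 0.0012 at day 5 (3 libraries each, SD, exact two-sided permutation p = 0.10, the smallest that 3 against 3 libraries allow). Of 50 DNA replication genes, 49 were called lower, and 48 after rescaling, with medians of -3.50 and -2.62. TYMS and TK1, which make and salvage thymidylate, fell with the helicase loader CDC6 (from 73.8 to 0.899 TPM) and the helicase subunit MCM4 (from 132 to 2.13 TPM). RPA3, a subunit of the single-strand binding protein, did not follow, at 20.6, 28.0 and 24.1 TPM against 26.3, 28.1 and 28.4 TPM. Its groups overlapped and it was not called as deposited (0.19, adjusted p = 0.214 from limma), but it was called higher after rescaling, at 1.37.

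Genes around the cell cycle engine moved the same way. Of 33 homologous recombination, Fanconi and checkpoint genes, all 33 were called lower, and 29 after rescaling, led by the checkpoint kinase CHEK1 with 74.2, 76.0 and 76.1 TPM at day 0 and 0.353, 0.943 and 1.03 TPM at day 5. ATM, the kinase at the head of the double-strand break response, fell by 0.83 on the log2 scale as deposited and stood at 0.31 after rescaling, where it was not called. Of 21 E2F factors, G1 cyclins and their kinases, 20 were called lower as deposited, and after rescaling 17 were lower and 1 higher. E2F2 went from 46.6, 46.8 and 42.9 TPM to 0.324, 0.415 and 0.441 TPM, and E2F1 from 21.6 to 0.738 TPM. CDK4 fell by 1.63 and was not called after rescaling, at -0.42. Among 21 DNA methylation and Polycomb genes, 18 were called lower and 1 higher (13 and 3 after rescaling). UHRF1, which brings the maintenance methyltransferase to replicating DNA, went from 39.1, 33.9 and 37.8 TPM to 0.144, 0.0643 and 0.0930 TPM, and DNMT1 and EZH2 fell by 3.15 and 3.31.

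Beside these falls, 33 features went from under 0.1 TPM in one group to at least 5 TPM in the other, and 26 of them were the ones under 0.1 TPM at day 5. MCM10 (37.2, 38.4 and 33.2 TPM at day 0, then 0.0516, 0.0363 and 0.103 TPM), FOXM1, EXO1, ESCO2 and GTSE1 were of this kind, and they act in replication, mitotic transcription, recombination, sister chromatid cohesion and G2. Growth-restraint genes did not rise as one group. Of 34 tested CDK inhibitors, RB family and quiescence genes, 17 were called lower and 8 higher as deposited, and 3 and 16 after rescaling, with medians of -0.50 and 0.46. PDCD4, an inhibitor of translation initiation, rose from 9.06, 10.8 and 12.1 TPM to 29.1, 30.6 and 46.3 TPM, and YPEL5, YPEL3 and TSC22D3 rose by 1.55, 1.33 and 0.96. The CDK inhibitor CDKN1A, a p53 target, fell by 1.62 as deposited and was not called after rescaling, at -0.45. CDKN1B was not called as deposited, at 0.31, and was called higher after rescaling, at 1.5.

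Stretches of promoter are printed for 5 genes of the cell cycle and interferon groups, chosen after their values were seen, because the members of these groups moved together. The sequences are RefSeq, build GRCh38.p14, bases -200 to -1 from the annotated start, in the direction of the gene. Motifs were searched on both strands, over windows from 250 bases before to 50 after the start, in 22114 promoters with a single entry, 6360 of them of tested features. Capitals in TYMS mark the E2F motif GCGGGAA. Capitals in CDC20 mark the CHR motif TTTGAA, the element through which mitotic genes are known to be held down in resting cells, and the CCAAT box, and in BUB1B the CHR motif.

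TYMS, chr18:657453-657652, plus strand: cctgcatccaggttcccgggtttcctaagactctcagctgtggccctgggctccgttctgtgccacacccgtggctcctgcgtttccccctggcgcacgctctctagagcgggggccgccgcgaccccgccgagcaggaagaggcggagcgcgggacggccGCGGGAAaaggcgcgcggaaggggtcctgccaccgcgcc
CDC20, chr1:43358781-43358980, plus strand: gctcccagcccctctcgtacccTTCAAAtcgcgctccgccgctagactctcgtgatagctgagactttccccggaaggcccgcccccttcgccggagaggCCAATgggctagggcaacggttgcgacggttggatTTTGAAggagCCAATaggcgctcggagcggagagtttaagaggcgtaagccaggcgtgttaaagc
BUB1B, chr15:40160869-40161068, plus strand: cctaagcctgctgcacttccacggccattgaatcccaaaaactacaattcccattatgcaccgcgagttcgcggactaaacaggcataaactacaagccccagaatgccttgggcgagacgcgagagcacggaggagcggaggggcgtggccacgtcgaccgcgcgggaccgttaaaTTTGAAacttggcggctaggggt

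The CHR motif was found in 33 of the 45 mitosis promoters with an entry (73.3%), beside 16.0% of all promoters and 8.90% of those of tested features. The CCAAT box was found in 35 of these 45 (77.8%), beside 36.2% and 39.1%. It was not particular to this list, as 14 of 16 ER chaperone promoters (87.5%) and 19 of 24 histone promoters (79.2%) also had it. The E2F motif was in 16 of 33 replication promoters (48.5%) and 11 of 21 recombination promoters (52.4%), beside 6.43% of all and 11.4% of tested ones. Among E2F factors, G1 cyclins and their kinases, most of which also fell, it was in 1 of 11 promoters (9.09%). In CDC20 the 2 CHR matches began at -178 and -65 and the CCAAT boxes at -100 and -55, in BUB1B the CHR match began at -23, and in TYMS the E2F match began at -39. A match is a description of letters, not of binding, and these genes were chosen with their falls known.

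On the side of the rises, interferon-stimulated genes stood out by their number. Of 48 such genes, 42 were tested, and 25 of these were called higher and 2 lower (39 and 0 after rescaling), with medians of 0.83 and 1.74. The share higher was 59.5%, beside 7.73% of all tested features, and 92.9% beside 27.5% after rescaling. Since a gene silent at day 0 could enter the test only through a later group, these counts describe the tested members, and the 6 that were not tested were GBP1, HERC6, IFITM2, IFITM3, OAS3 and TRIM22. IFI27, a membrane protein induced by type I interferon, stood at 18.8, 22.4 and 24.7 TPM at day 0 and at 1010.1, 1102 and 1065 TPM at day 5. Its day 5 libraries were 48.2 times the day 0 level, at a log2 fold change of 5.54 (standard error 0.0846, adjusted p = 4.05e-14 from limma) and 6.73 after rescaling. IFI44 was nearly silent at day 0, at 0.0401, 0 and 0.157 TPM, and reached 15.8, 14.0 and 14.7 TPM. Among the antiviral effectors IFI6 rose from 10.7 to 94.0 TPM, IFIT1 from 0.421 to 10.3 TPM, ISG15 from 11.4 to 75.2 TPM, IFITM1 from 34.8 to 191 TPM and OAS1 from 7.99 to 33.2 TPM. The transcription factors of the pathway moved unequally. IRF7 and IRF9 rose by 2.08 and 2.00, STAT2 stood at -0.23 and was not called as deposited, and IRF1 fell by 0.85 as deposited but stood at 0.32 after rescaling, where it was not called. MX1 and BST2 were already at 42.6 and 347 TPM at day 0 and were not called as deposited, with 0.32 and 0.11, though higher after rescaling.

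The printed interferon promoters carry the ISRE core GAAANNGAA, the element through which type I interferon is known to act, marked by capitals on either strand.

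IFI6, chr1:27672193-27672392, minus strand: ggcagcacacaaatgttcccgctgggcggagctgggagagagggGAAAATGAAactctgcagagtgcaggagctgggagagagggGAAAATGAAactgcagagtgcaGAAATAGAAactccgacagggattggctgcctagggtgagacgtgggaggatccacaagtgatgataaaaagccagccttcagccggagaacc
IFIT1, chr10:89392423-89392622, plus strand: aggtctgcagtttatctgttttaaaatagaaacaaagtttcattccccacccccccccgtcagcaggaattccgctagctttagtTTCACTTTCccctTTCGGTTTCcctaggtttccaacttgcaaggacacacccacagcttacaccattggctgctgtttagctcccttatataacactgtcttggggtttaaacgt

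IFI6 had 3 matches in this stretch, beginning at -156, -115 and -93, and IFIT1 had 2, at -115 and -102. The ISRE core was found in 15 of the 21 interferon-stimulated promoters with an entry (71.4%), beside 8.60% of all promoters and 6.56% of those of tested features. It was also in 7 of 10 promoters of MHC class I and immunoproteasome genes (70.0%) and 10 of 24 histone promoters (41.7%). A list of genes known to answer interferon is rich in this element whatever their change here, so its share does not bear on these libraries.

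Antigen presentation genes were mixed. Of 18 tested MHC class I and immunoproteasome genes, 10 were called lower and 3 higher, and after rescaling 3 lower and 8 higher. As deposited the shares were 55.6% and 16.7%, beside 69.8% and 7.73% of all tested features. B2M, the light chain of MHC class I, rose from 1985, 2139 and 2037 TPM to 8106, 7938 and 7870 TPM, a log2 fold change of 1.96 (standard error 0.0712, adjusted p = 2.29e-11 from limma). HLA-B and HLA-F rose by 0.61 and 0.93. The immunoproteasome subunit PSMB8, its activator subunit PSME2 and the peptide trimmer ERAP2 fell by 1.76, 1.87 and 2.16 and stayed lower after rescaling.

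A handful of chemokine and signalling genes rose steeply. CCL4, a chemokine that draws macrophages and T cells, stood at 0.341, 0.205 and 0.293 TPM at day 0 and 25.0, 26.7 and 29.3 TPM at day 5 (log2 fold change 4.45, standard error 0.109, adjusted p = 5.75e-13 from limma). Its neighbour CCL3 rose from 54.1 to 417 TPM and the copies CCL3L3 and CCL4L2 from 2.52 to 30.4 TPM and 0.177 to 9.95 TPM, and reads of these near-identical genes may be split between them. RGS1, which dampens chemokine receptor signals, went from 0.540, 1.10 and 0.454 TPM to 36.1, 35.0 and 36.5 TPM. Of 27 chemokine, cytokine and feedback genes, 16 were tested, 8 of them called higher and 4 lower (12 and 1 after rescaling). Those not tested include TNF, IL6, IL1B and CXCL8. Of all tested features, 7.73% were higher and 69.8% lower, and 27.5% and 26.9% after rescaling. Here too, a member silent at day 0 could be tested only through a later group. The counts for this list describe its tested members and are no support for a rise of the whole list. The mitochondrial dismutase SOD2, an NF-κB target, fell from 90.6, 89.5 and 96.4 TPM to 16.2, 19.6 and 19.4 TPM. Of 23 NF-κB subunits, kinases and adaptors, 18 were called lower and 1 (RELB, at 0.79) higher (4 and 5 after rescaling). As deposited these shares were 78.3% and 4.35%, beside 69.8% and 7.73% of all tested features. AP-1 and immediate-early genes were mixed, with 14 of 20 lower and 3 higher (6 and 7 after rescaling). FOS and JUN rose by 1.65 and 1.22 from levels near 1 TPM or below, and the ERK phosphatases DUSP5 and DUSP6 fell, at -2.03 and -2.05.

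Further rises among the 15 largest were in SELENOP, a secreted selenium carrier (0.854, 1.28 and 0.616 TPM at day 0, then 24.1, 20.7 and 20.5 TPM), and CTSS, a lysosomal cysteine protease (2.69, 3.04 and 4.11 TPM, then 54.6, 52.7 and 42.3 TPM). In both, all day 5 libraries lay above all day 0 libraries, which was a condition for a place among the 15. The other members of the 15 were histone genes and short structured RNAs. Just outside the 15 were AIM2, RPPH1, PLAC1 and LINC01480, with log2 fold changes of 3.50, 3.36, 3.31 and 3.19.

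**Figure D3:**
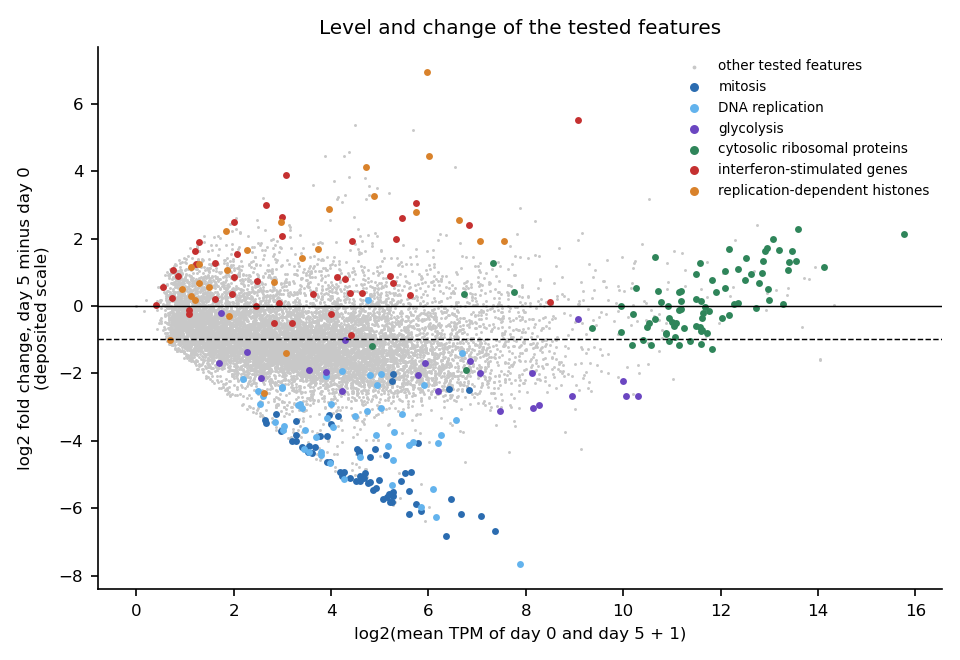
Log2 fold change of day 5 against day 0 on the deposited scale (y axis) by log2 of the mean TPM of the 2 groups plus 1 (x axis) for all tested features, with 6 gene lists coloured, a solid line at 0 and a dashed line at the median of -0.99. Mitosis genes (dark blue) and DNA replication genes (light blue) form the lower edge, interferon-stimulated (red) and histone genes (orange) the upper edge, and ribosomal protein genes (green) lie at the right.

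The OST subunits themselves did not move as one. Of 12 subunit genes, 6 were called lower and 1 higher as deposited, with a median of -0.49, and 1 lower and 8 higher after rescaling, with a median of 0.72. The catalytic subunits differed from each other in value: STT3A went from 362, 339 and 339 TPM to 99.3, 105 and 142 TPM, and STT3B from 194, 222 and 199 TPM to 158, 158 and 162 TPM. STT3A fell by 1.60 as deposited and was not called after rescaling, at -0.38, whereas STT3B stood at -0.36, not called, and was called higher after rescaling, at 0.86. Whether the 2 changes differ was not tested. RPN2, a structural subunit, was called lower on both scales, at 442, 416 and 425 TPM and then 108, 118 and 156 TPM (-1.76 and -0.54). DDOST and MAGT1 fell by 0.68 and 0.55 as deposited and were called higher after rescaling, at 0.54 and 0.64, while RPN1 fell by 0.93 and was not called after rescaling, at 0.29. KRTCAP2, which belongs to the STT3A form, fell by 1.56 and was not called after rescaling, at -0.34. The small subunits OSTC, TMEM258 and DAD1 stood at 0.27, 0.16 and 0.058 and OST4 at -0.42, none called as deposited and each called higher after rescaling. TUSC3, a paralogue of MAGT1, was called higher on both scales, from a level of 0.189 TPM to 1.27 TPM.

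The pathway that feeds OST and the steps after it followed the bulk of the transcriptome more closely. Of 23 dolichol-linked oligosaccharide genes, 19 were called lower and 2 higher (median -1.09), and 5 and 5 after rescaling (median 0.031). ALG9, a mannosyltransferase, fell from 21.6, 25.2 and 21.9 TPM to 3.32, 2.78 and 5.31 TPM, and DPAGT1, the first enzyme of the pathway, fell by 2.15. Of 25 Golgi N-glycan genes, 20 were lower and 2 higher (7 and 5 after rescaling). The branching enzyme MGAT5 fell by 2.56, while the sialyltransferase ST3GAL6 rose from 503, 571 and 536 TPM to 1324, 1523 and 1620 TPM and the sialic acid transporter SLC35A1 rose by 1.06. Of 24 glycoprotein quality control and ER-associated degradation genes, 20 were lower and 0 higher (6 and 7 after rescaling). GANAB, a glucosidase that trims new glycans, fell by 2.08, and HERPUD1 stood at 0.36, not called as deposited and higher after rescaling, at 1.58.

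Genes of the unfolded protein response did not rise together in transcript level. XBP1 splicing and eIF2α phosphorylation, which the study reports as increased under NGI-1, cannot be read from levels per gene. Of 22 ER chaperones and oxidoreductases, 19 were called lower and 1 higher (median -1.23), and 3 and 3 after rescaling (median -0.023). HSPA5, the chaperone BiP, fell from 225 to 71.7 TPM and stood at -0.44 after rescaling, not called. SDF2L1 and CALR fell by 1.97 and 1.95 and stayed lower after rescaling. DNAJB9, a BiP co-chaperone and XBP1 target, was the member called higher on both scales, from 57.7, 61.5 and 53 TPM to 71.5, 94.6 and 104 TPM. XBP1 fell from 1451, 1594 and 1597 TPM to 301, 350.0 and 448 TPM (-2.09 in log2, standard error 0.130, adjusted p = 4.14e-09 from limma), or -0.87 after rescaling. The ATF4 branch lay above the bulk, with 14 of 26 tested genes lower and 3 higher (median -0.56), and 2 lower and 14 higher after rescaling (median 0.63). DDIT3, which encodes CHOP, rose from 11.8, 10.8 and 11.3 TPM to 46.1, 43.1 and 41.7 TPM, and SLC3A2, the heavy chain of several amino acid transporters, rose by 1.44. Its partner SLC7A5 fell by 2.12. ATF4 itself stood at 0.12, not called as deposited, and 1.34, called higher, after rescaling.

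Among the proteins that define a myeloma cell, TNFRSF17, the receptor BCMA, rose from 549, 577 and 606 TPM to 2083, 2129 and 2050 TPM, 3.62 times the day 0 level. SDC1, the surface proteoglycan CD138, fell from 496, 478 and 512 TPM to 128, 139 and 164 TPM, and CD38 from 49.3, 47.3 and 41.2 TPM to 14.9, 17.1 and 20.8 TPM. In all of these the groups stayed apart, but CD38 was not called after rescaling, at -0.16. Of 25 tested myeloma surface genes, 16 were lower and 2 higher (3 and 12 after rescaling). As deposited these shares were 64.0% and 8.0%, near the 69.8% and 7.73% of all tested features. The integrin gene ITGB1, whose protein is a glycosylated readout in the study, fell by 0.56 as deposited and was called higher after rescaling, at 0.64. It stood at -0.46 without replicate 1 of day 5 and was then not called. IRF4, IKZF1 and POU2AF1, transcription factors of plasma cells, fell by 1.09, 2.09 and 1.37, of which IKZF1 alone stayed lower after rescaling, at -0.94. PRDM1 and MEF2C were not called as deposited, at 0.28 and 0.015, and were higher after rescaling. MYC stood at 97.2, 83.1 and 79.8 TPM at day 0 and 32.6, 37.2 and 55.9 TPM at day 5, a fall of 1.06 that turned to 0.14, not called, after rescaling. FGFR3 and NSD2 fell by 0.72 and 0.73 as deposited and stood at 0.50 and 0.47, not called, after rescaling. CCND1 fell from 46.5, 44 and 38.1 TPM to 4.47, 5.47 and 7.41 TPM on both scales.

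Immunoglobulin segments and JCHAIN, taken in sum, fell as a share of the RNA. IGKC went from the day 0 values given above to 7071, 8239 and 10131 TPM, and its variable partner IGKV3-15 from 27915, 22597 and 24917 TPM to 7102, 8126 and 10283 TPM. These were the 2 features that lost most TPM, with differences of -16780 and -16639, and neither was called after rescaling, at -0.36 and -0.35. JCHAIN, which joins secreted antibody units, rose from 8732, 10731 and 9630 TPM to 17399, 16774 and 17845 TPM. Immunoglobulin segments and JCHAIN together took 6.74% ± 0.38 at day 0 and 3.85% ± 0.37 at day 5 (3 libraries each, SD, exact permutation p = 0.10). Of 17 constant chain genes and their partners, 8 were tested, with 4 lower and 2 higher (0 and 5 after rescaling). In the translocon and early secretory pathway 35 of 46 genes (76.1%) were lower, near the 69.8% of all tested features, and after rescaling 16 were lower and 15 higher.

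Genes of cell death were mixed as well. TNFSF10, the death ligand TRAIL, rose from 0.224, 0.196 and 0.147 TPM to 5.41, 5.21 and 5.70 TPM. Its receptors TNFRSF10A and TNFRSF10B fell by 1.27 and 0.56 as deposited, and TNFRSF10B was called higher after rescaling, at 0.57. Over 23 tested death ligands, receptors and caspases, 14 were lower and 4 higher (3 and 10 after rescaling). As deposited these shares were 60.9% and 17.4%, beside 69.8% and 7.73% of all tested features. In the BCL2 family 7 of 17 tested genes (41.2%) were lower and 4 (23.5%) higher (3 and 10 after rescaling). The 4 were BCL2 itself (3.92, 4.04 and 3.48 TPM, then 10.2, 10.8 and 19.2 TPM), BCL2A1 and the death-promoting PMAIP1 and BBC3, with log2 fold changes of 1.53, 1.16, 1.32 and 1.22. The pore formers BAX and BAK1 fell by 2.06 and 2.32, with -0.86 and -1.13 after rescaling. MCL1, on which myeloma cells often depend, fell by 0.81 as deposited and stood at 0.41, not called, after rescaling.

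**Figure D4:**
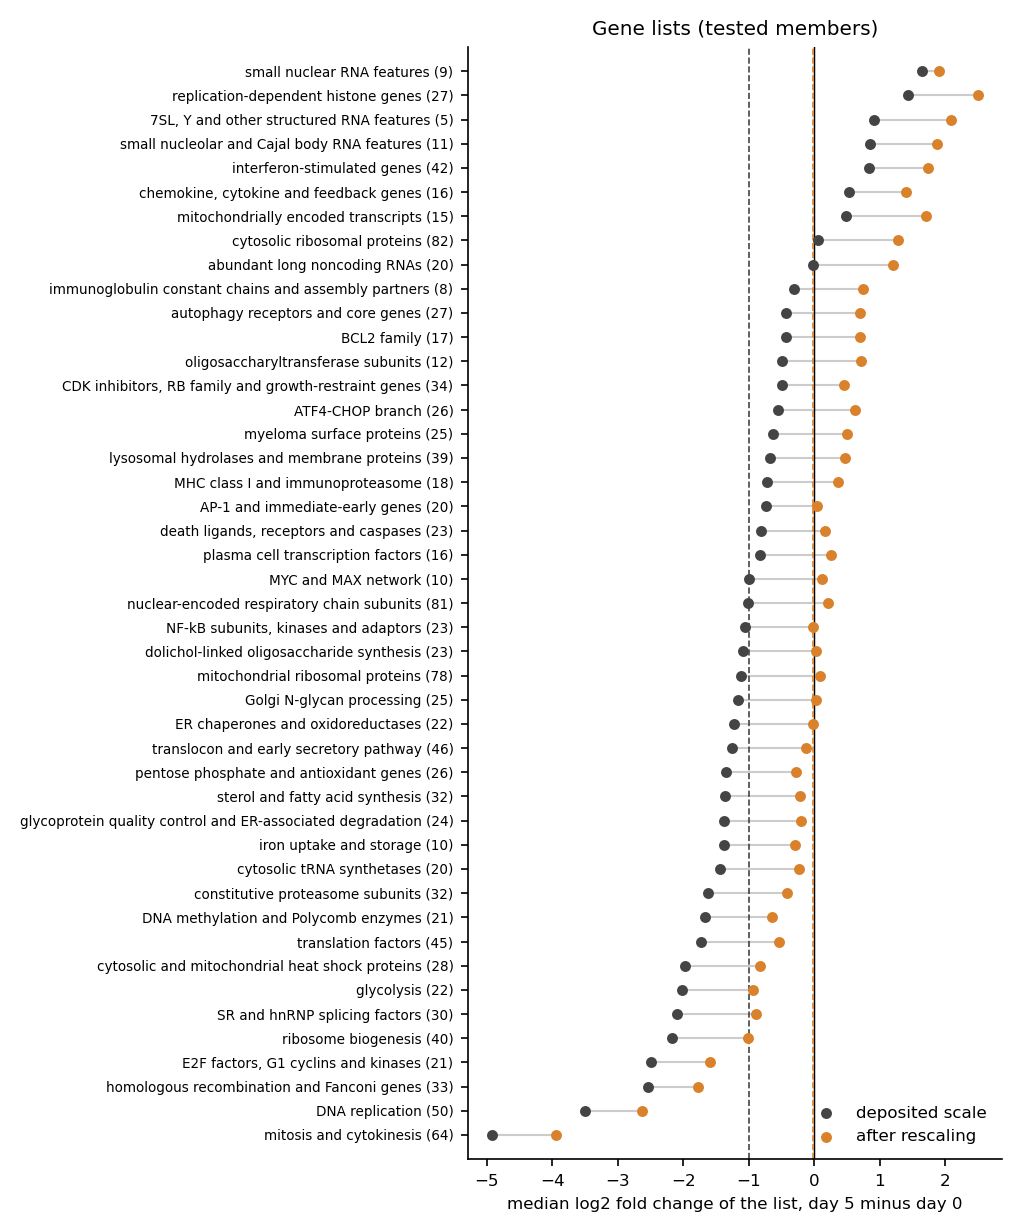
Median log2 fold change of day 5 against day 0 (x axis) for each of 45 gene lists (y axis, tested members in brackets), as deposited (grey) and after rescaling (orange), with dashed lines at the medians of all tested features. Mitosis is lowest, at -4.92, and small nuclear RNA, histone and interferon-stimulated genes are among those above 0 on both scales.

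Several lists of biosynthesis and energy genes had medians below the -0.99 of all tested features. Of 22 tested glycolysis genes, 20 were lower and 0 higher (median -2.02), and 16 and 2 after rescaling (median -0.93). GPI, which turns glucose 6-phosphate into fructose 6-phosphate, fell from 354, 286 and 305 TPM to 27.9, 32.0 and 49.9 TPM, and GAPDH and LDHA fell, at -2.68 and -2.66. As a share, glycolysis genes took 0.978% ± 0.028 at day 0 and 0.209% ± 0.011 at day 5 (3 libraries each, SD, exact permutation p = 0.10). All 30 SR and hnRNP splicing factors were called lower, and 21 after rescaling, with HNRNPA2B1 at -3.07. Of 28 heat shock genes, 24 were lower and 1 higher (16 and 5 after rescaling), with HSPA8 falling from 2033 to 333 TPM. Of 40 ribosome biogenesis genes, 38 were lower and 0 higher (28 and 4 after rescaling). TCOF1, a cofactor of RNA polymerase I, went from 41.6, 37.8 and 35.2 TPM to 2.70, 2.72 and 4.30 TPM. Of 32 constitutive proteasome subunits, 27 were lower and 1 higher (12 and 6 after rescaling). In sterol and fatty acid synthesis 26 of 32 genes were lower and 1 higher (12 and 7 after rescaling), with ACLY at -2.53. TFRC, the transferrin receptor, fell from 362, 382 and 333 TPM to 42.7, 41.2 and 56.5 TPM, while the ferritin light chain FTL stayed within 5897 to 7548 TPM in all 6 libraries. It was not called as deposited, at -0.029, and was called higher after rescaling, at 1.20.

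Of 39 lysosomal genes, 26 were lower and 2 higher, or 66.7% and 5.13%, near the 69.8% and 7.73% of all tested features, and after rescaling 6 were lower and 17 higher. GLA, the alpha-galactosidase, fell by 2.80. Of 27 tested autophagy genes, 13 were lower and 4 higher (1 and 15 after rescaling), and the receptors CALCOCO1, SQSTM1 and TAX1BP1 rose by 0.96, 0.74 and 0.70. In the MYC and MAX network 7 of 10 tested genes (70.0%) were lower, which is the share of all tested features. The shares lower were 81.2% of 16 plasma cell transcription factors, 84.6% of 26 pentose phosphate and antioxidant genes, 90.0% of 10 iron genes and 95.0% of 20 tRNA synthetases, beside 69.8% of all. After rescaling they were 12.5%, 38.5%, 40.0% and 40.0%, beside 26.9% of all.

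Ribosomal protein transcripts held a larger share of the RNA at day 5. They took 28.6%, 28.1% and 29.2% of the TPM in the day 0 libraries and 49.1%, 48.8% and 47.5% at day 5, a difference of 19.8 percentage points (exact permutation p = 0.10). The gain was uneven. RPS27 alone rose from 19970, 20493 and 21270 TPM to 92168, 87251 and 91595 TPM, and without it the difference was 12.9 points. RPL39, RPL41 and RPL26 gained 16325, 13711 and 11563 TPM. Of 82 tested ribosomal protein features, which include the paralogues RPL7L1 and RPL39L, 24 were called lower and 28 higher (median 0.058), and 1 and 66 after rescaling (median 1.28). RPS15 fell from 5695, 4519 and 5200 TPM to 1901, 2326 and 2163 TPM, and stood at -0.042, not called, after rescaling. Among 45 translation factors, 38 were lower and 2 higher (24 and 8 after rescaling). The 2 risers were EIF3E (1.34) and TPT1 (1.06), whose messages, like those of the ribosomal proteins, carry a terminal oligopyrimidine tract, and EEF1A1, another such message and one of the most abundant, fell by 0.61 as deposited and was called higher after rescaling, at 0.61.

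Mitochondrially encoded transcripts took 9.95% ± 0.70 at day 0 and 14.2% ± 0.64 at day 5 (3 libraries each, SD, exact permutation p = 0.10). Of the 15 tested, 7 were called higher as deposited and 15 after rescaling. MT-CO1, a subunit of cytochrome c oxidase, rose from 9740, 9831 and 9463 TPM to 24097, 21582 and 18937 TPM, whereas MT-ATP6 stood at -0.12, not called as deposited, and 1.11, higher, after rescaling. The nuclear subunits of the respiratory chain had a median of -1.01, beside -0.99 for all tested features, with 49 of 81 lower (60.5%, beside 69.8% of all) and 13 higher. UQCRB and COX7C rose by 1.29 each, and COX8A fell by 2.35. Of 78 mitochondrial ribosomal protein genes, 54 were lower (69.2%, near the 69.8% of all) and 4 higher (18 and 27 after rescaling).

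Several replication-dependent histone genes rose while the replication genes fell. Of 65 histone features 27 were tested, and 21 of these were called higher and 3 lower (23 and 1 after rescaling), with medians of 1.44 and 2.50. As with the interferon genes, a member silent at day 0 could be tested only through a later group, so the counts describe the tested members and are no support for a rise of the family. H2AC6 rose from 4.11, 4.99 and 5.09 TPM to 116, 123 and 130.3 TPM, a log2 fold change of 4.44 (standard error 0.102, adjusted p = 3.68e-13 from limma). H4C11 was listed at 0 in every day 0 library and at 119, 127 and 123 TPM at day 5. H1-2, a linker histone, rose from 54.4 to 209 TPM and H2BC12 from 77.9 to 297 TPM. H2AC18 was at 14.4, 0 and 0 TPM and then at 66.4, 43.9 and 26.5 TPM. H4C12 went from 12.8, 8.13 and 6.83 TPM to 0, 0 and 3.48 TPM, and its call as lower did not outlast rescaling (adjusted p = 0.137 from limma) or leaving out any 1 of the libraries other than replicate 3 of day 5. The genes of this family are near-identical in sequence, so reads may be split between members. As a share of TPM the family took 0.0249% ± 0.0028 at day 0 and 0.123% ± 0.011 at day 5 (3 libraries each, SD, exact permutation p = 0.10).

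Some short structured RNAs also rose, with a wide spread between libraries. RNU2-2P, a U2 small nuclear RNA feature, was listed at 0 at day 0 and at 64.1, 36.9 and 27.3 TPM at day 5. RNU1-1, a U1 gene, was at 14.8, 0 and 0 TPM and then at 134.7, 70.7 and 81.6 TPM, and RN7SK, which restrains transcription elongation, at 9.28, 5.65 and 14.1 TPM and then at 192, 176 and 157 TPM. RPPH1, the RNA of RNase P, went from 7.04, 3.28 and 5.84 TPM to 93.8, 64.2 and 39.9 TPM, and the nucleolar RNA SNORD3D from 0, 0 and 1.09 TPM to 79.5, 23.2 and 13.3 TPM. In RNU2-2P, RPPH1 and SNORD3D replicate 1 of day 5 was highest and replicate 3 lowest. The 5.8S ribosomal RNA features took 1.82%, 1.18% and 0.519% of the TPM in these 3 libraries, in the same order, and 0.145%, 0.197% and 0.267% at day 0. Their part in the rise of the short RNAs was not tested. Of 9 tested small nuclear RNA features 4 were higher, of 11 small nucleolar ones 7 higher and 3 lower, and of 5 other structured RNAs 2 higher as deposited. After rescaling these were 4 higher, 7 higher and 1 lower, and 4 higher. Of all tested features, 7.73% were higher and 69.8% lower as deposited. The tested members were few of the 1788, 456 and 14 listed. As with the histone genes, a member silent at day 0 could be tested only through a later group. The counts describe the tested members and are no support for a rise of these families. SNORD17 was the small nucleolar member called lower on both scales, at -2.70 and -1.73. AL162581.1 was at 0 in every day 0 library but at 57.0, 0 and 37.5 TPM at day 5, and it lost its call when replicate 1 or 3 of day 5 was left out, and likewise without any 1 of the day 0 libraries.

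Long noncoding RNA also lay above the bulk. Of 733 tested long noncoding features, 225 were lower and 182 higher, with a median of -0.11, beside 7848 lower and 626 higher of 10610 protein-coding ones, with a median of -1.08. After rescaling 58 were lower and 389 higher, against 3094 and 2637. The shares called also differed with day 0 level. Among the 2388 tested features lowest at day 0 (up to 2.80 TPM), 35.4% were lower and 18.7% higher, with a median of -0.28. Among the 2388 highest at day 0 these were 78.7%, 6.32% and -1.42. Features under 1 TPM at day 0 could be tested only through later libraries, and the pseudocount of 1 understates their falls. Day 0 is also 1 side of the comparison. These shares therefore cannot show that the change depends on level. The same filter limit holds for the long noncoding features. The classes were not matched for level, so the part of level in their difference was not tested. MALAT1, a nuclear speckle RNA, rose from 90.1, 85.5 and 77.4 TPM to 420.4, 447 and 620.4 TPM, and NEAT1, the scaffold of paraspeckles, from 14.9 to 48 TPM. GAS5 and ZFAS1, hosts of small nucleolar RNAs with the same tract, rose by 1.58 and 2.16. SNHG16 fell by 1.4 and was not called after rescaling, at -0.20.

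The change was also set beside measured properties of the genes. Features were cut into 5 bins of equal size for each property. Among protein-coding genes, 33.8% of those in the bin with the shortest transcripts (207 to 864 bases) and 15.5% of those with the longest (3378 to 27174 bases) were called higher after rescaling, with medians of 0.080 and -0.22. Without ribosomal, respiratory, replication and mitosis genes these shares were 31.7% and 15.7%. The bin with the lowest GC content (31.9% to 42.2%) had a median of 0.22 after rescaling, and the bin from 52.3% to 58.6% had a median of -0.23. Genes are not independent replicates, and no test was made of these trends. Their part in the results for the lists was not tested.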

How the data were processed

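Total RNA was extracted from cells labelled MM1S and sequenced, with 3 libraries per time point. Day 5 was compared with day 0, and with day 3 for the named genes. The study's methods do not say how RNA was selected for the libraries, such as by poly(A) tails. The part of that step in the values of histone genes and short RNAs was not tested. The authors deposited 1 table of log2(TPM + 1) per gene; their processing notes name FastQC, Trimmomatic, STAR, Salmon and hg38, and the annotation is not given in the sources used here. The TPM were recovered from the deposited log2 values. TPM keep no read counts, so depth is unknown and no count model, interval or floor could be given. All 12 sample columns were matched to the labels, and 0 columns were left unused.

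Features that reached 1 TPM in 3 or more libraries were fitted with limma 3.58.1 in R 4.3.3, with a mean-variance trend, over all 12 libraries, which share one estimate of the spread, and the contrast was day 5 minus day 0. A feature was called at an adjusted p (Benjamini-Hochberg) below 0.05 where log2 fold changes exceeded 0.5 either way, with a pseudocount of 1, which understates changes of low genes. The fit was tested on simulated data. Class shares of TPM were compared by exact two-sided permutation over 20 choices of libraries. Summaries were made with Python 3.11.15, pandas 2.3.3 and matplotlib 3.10.9. GENCODE 29 gave biotypes, lengths and GC content (11834 features matched, 99.1%), and promoters came from RefSeq GRCh38.p14.

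Genes named were the 15 largest rises and 15 largest falls called on both scales with a mean of at least 10 TPM in a group and no overlap between libraries, the largest rise and fall of each of 45 lists, MYC, TNFSF10, XBP1, ITGB1 and the OST subunits, the 5 features that gained and 5 that lost most TPM, and 8 features under 0.1 TPM in one group. Other genes given as examples, and the genes of the label check, were chosen after their values were seen. The comparison and the lists were chosen with earlier results of these data known. Some items are not reported here. Alternatives changed the scaling, filter, pseudocount, thresholds, trend, libraries and features.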

Additional observations from a re-analysis of the deposited data

Results flagged for a closer look

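In 8 of the named genes the change went on, or arose, between day 3 and day 5, by limma's test of day 5 against day 3 in the same fit, with an adjusted p under 0.05 and a difference over 1 log2 unit on both scales. 7 of the 8 were lower at day 5 than at day 3. All but CD38 were named for the size of their change at day 5 against day 0. That choice favours a difference from day 3 in the same direction, and the adjusted p-values do not allow for it. RRM2 stood at a mean of 467, 6.63 and 1.31 TPM at days 0, 3 and 5, a day 5 against day 3 difference of -1.71 in log2 (adjusted p = 2.12e-05) and -1.56 after rescaling. UBE2C (326, 8.97 and 2.19 TPM) differed by -1.63, NUSAP1 (162, 3.18 and 0.449 TPM) by -1.50, TROAP (125, 4.79 and 1.05 TPM) by -1.53, CCNB1 (200.4, 5.82 and 1.79 TPM) by -1.30 and AC087632.2 (120, 4.06 and 0.508 TPM) by -1.74. For these 5 the rescaled differences ran from -1.79 to -1.10, so most of their fall had been reached by day 3.

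CD38 did not share that course, with means of 45.9, 89.0, 46.8 and 17.6 TPM at days 0, 2, 3 and 5. Its difference between day 5 and day 3 was -1.36 (adjusted p = 4.06e-05 from limma), or -1.03 after rescaling. Against day 0 its day 5 level stood at -0.16 after rescaling and was not called. H2AC18 stood at 4.81, 5.16 and 45.6 TPM and was higher at day 5 than at day 3 by 4.10 (adjusted p = 0.0231 from limma), or 4.68 after rescaling.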

How the results depend on the processing

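The deposited table gave 8333 features lower and 923 higher, with a median log2 fold change of -0.99. Rescaling gave 3209, 3281 and -0.019, and rescaling without replicate 3 of day 5, an alternative chosen after seeing the data, gave 3379, 3300 and -0.036. Without ribosomal protein and mitochondrially encoded features 1987 were higher and the median was -0.48, and without the 20 most abundant features the median was -0.79. A TPM minimum of 5 gave 578 higher and a median of -1.21, a pseudocount of 0.1 a median of -1.22, no filter a median of -0.057, and a fold threshold of 1 left 407 higher. Leaving out 1 library at a time gave 8064 to 8540 lower, 860 to 940 higher and medians from -1.08 to -0.93. 

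Of the 147 named genes, 112 kept direction and call after rescaling and 19 turned from a negative to a positive value. After rescaling, and after rescaling without replicate 3 of day 5, these stood at 0.31 and 0.30 for ATM, 0.54 and 0.52 for DDOST, 0.84 and 0.78 for E2F5, 0.61 and 0.76 for EEF1A1, 0.50 and 0.47 for FGFR3, 1.20 and 1.20 for FTL, 1.11 and 1.27 for GNL3, 0.35 and 0.41 for HNRNPC, 0.32 and 0.33 for IRF1, 0.64 and 0.65 for ITGB1, 0.64 and 0.78 for MAGT1, 1.11 and 1.23 for MT-ATP6, 0.14 and 0.019 for MYC, 0.47 and 0.42 for NSD2, 0.80 and 0.92 for OST4, 0.29 and 0.38 for RPN1, 0.75 and 0.69 for SARS1, 0.66 and 0.73 for SLC16A3 and 0.86 and 0.95 for STT3B. RPS15 turned only in the second, at 0.047. Without ribosomal protein and mitochondrially encoded features, DDOST stood at 0.036, EEF1A1 at 0.11, FTL at 0.69, GNL3 at 0.61, ITGB1 at 0.14 and MAGT1 at 0.14. Of the 45 list medians, taken relative to all tested features, 45 moved by more than the spread between libraries with no filter, 36 with a TPM minimum of 5, 36 with a pseudocount of 0.1 and 28 after rescaling. Leaving out a library cost AL162581.1, CBX7, H4C12 and ITGB1 their calls.

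Without the single most abundant feature of each class, the difference in percent of TPM was 12.9 for ribosomal proteins, 0.0764 for histones, 0.0177 for small nuclear RNA, -0.738 for the nuclear respiratory chain, -0.108 for OST subunits, -0.585 for glycolysis, 0.0547 for interferon-stimulated genes, -0.378 for mitosis, -0.229 for replication, -1.21 for immunoglobulin and 0 for 5.8S RNA. No paired analysis was possible because the labels carry no replicate numbers shared between groups. The unknown depth limits what can be said of features near 0 TPM.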
